A study of Rattus norvegicus with 6 samples.

Results

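Numbered zinc finger protein genes, whose symbols are Zfp or Znf followed by a number alone, were followed, without and with lactate, in cultured rat cells from the nucleus pulposus, the soft centre of a spinal disc. The members were selected on their symbol and on a measured value, a sum of at least 60 read counts over the 6 libraries, with Zfp36 left out. Of 17273 genes in the deposited table, 224 other symbols had this form and 212 reached the sum, 3 of them written Znf (Znf740, Znf768 and Znf48). All cells were wild type and came from male Sprague Dawley rats, and were grown in DMEM with fetal bovine serum. The 3 control libraries came from untreated cells and the 3 lactate libraries from cells kept in 10 mM lactate over 8 h. Neither the chemical form of the lactate nor the age of the rats is in the labels. Separate cultures or animals are not named for the libraries either, so a p-value here reflects a spread among libraries that could be technical.

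Most genes named in this way encode proteins with C2H2 zinc fingers, small folds in which paired cysteines and histidines hold a zinc ion and which contact DNA, or in some proteins RNA. In mammals the largest subfamily joins an array of fingers to a KRAB domain, which recruits the co-repressor Trim28 and, through it, the histone methyltransferase Setdb1 to silence chromatin, often at transposable elements. Other members act in RNA processing, protein quality control or signalling. The name gives the gene family only loosely, and no protein sequences were analysed here, so the members were not divided by domain.

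Libraries held 30291357 to 38989574 counts. Levels are given as CPM, counts relative to library size after scaling by TMM factors, which set libraries to a common level for the bulk of genes. A count of 0 allows up to 3 counts, or 0.0581 to 0.0656 CPM in a control and 0.105 to 0.141 CPM in a lactate library, for counting error only. Among 11 nucleus pulposus and notochord markers in the table, Acan had 344920 counts and Pax1 34129 over the control libraries, while the notochord markers Tbxt and Krt19 had 12 and 9, and 0 in lactate libraries. The collagen gene Col1a1, a marker of fibroblasts and annulus fibrosus, had 4588573 control and 8766521 lactate counts. The 11 nucleus pulposus markers summed to 3378 to 3869 CPM (without TMM factors) in control and 1731 to 2055 in lactate libraries, and 5 fibroblast and annulus markers to 40066 to 48232 and 81287 to 102079. Of the latter list Pdgfra (14194 to 2638 counts), Mkx (5411 to 520) and Scx (10891 to 5633) had fewer counts after lactate. In the nucleus pulposus list Cd24 (4196 to 10382), Sox9 (852 to 1108) and Col2a1 (39 to 55) had more counts after lactate, and the others fewer. Acan (344920 to 164769) made up most of that list's sums. The part of these markers in the results on members was not tested. Macrophage markers summed to 13.0 to 14.1 CPM (without TMM factors) in control and 2.87 to 3.97 in lactate libraries, and endothelial markers to under 1 in both. The lower macrophage sum came from Cd14 (1357 to 202 counts) and Adgre1 (4 to 0), while Cd68 (76 to 109) and Csf1r (23 to 36) had more counts.

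The members were genes of low to middle abundance. Of the 210 that passed the filter on low counts, 24 had a mean under 1 CPM over the 6 libraries, 118 were between 1 and 10, 68 were at 10 or more, and 1 was above 100. Their median level per transcript length was 3.03, 3.61 and 3.52 FPKM in the control libraries, where the median over all 13747 tested genes was 7.71 to 7.85. In the lactate libraries the members' median was 1.05, 0.944 and 1.38 FPKM, against 3.41 to 4.16 for all tested genes. The members nearest the minimum sum were Zfp605 (64 counts) and Zfp951 (80) inside it, and Zfp93 (47) and Zfp300 (37) outside it. All 4 had more counts in the control than in the lactate libraries.

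After lactate more members fell than rose. Called at an adjusted p under 0.05 with edgeR's quasi-likelihood test over all genes, 114 members (54.3%) were lower, where 34.6% of all tested genes were, and 31 (14.8%) were higher, where 31.4% were. The other 65 were not called. The median log2 fold change was −0.96 over the members and −0.10 over all tested genes. The sum that chose the members, and the filter, can keep a gene through the group where it is high, so these counts and medians describe the genes that passed. In RNA from whole cultures, fewer cells of a type and less RNA per cell cannot be told apart.

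**Figure D1:**
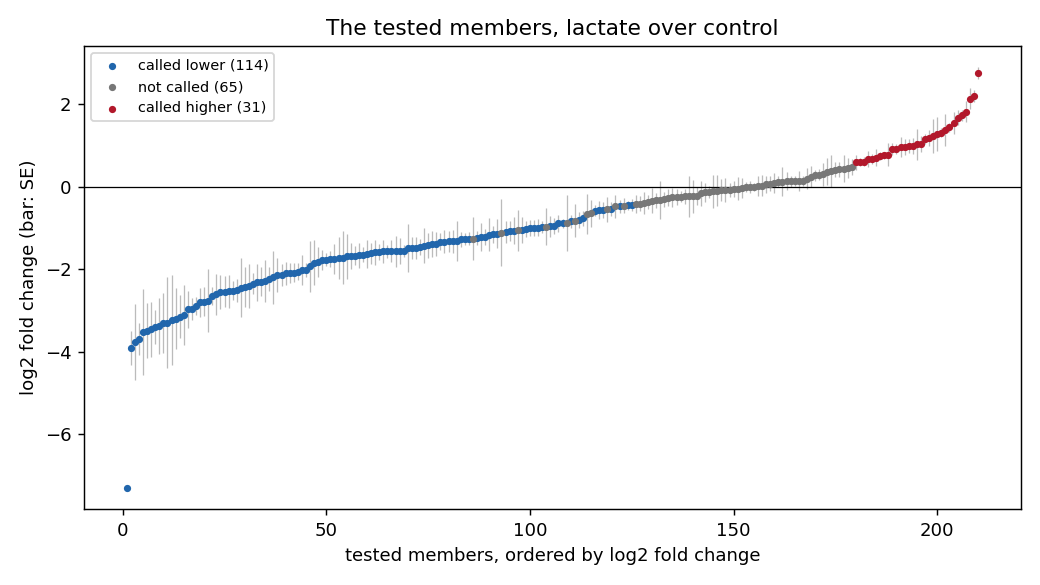
The log2 fold change of lactate over control (vertical axis, bars are SE) for the 210 tested members in rising order (horizontal axis). Blue points are the 114 called lower, grey the 65 not called and red the 31 called higher; the lowest point, Zfp951, had 0 counts in every lactate library and has no SE.

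Large changes were mostly falls. A fall of at least 4-fold was called in 45 members (21.4%, against 8.45% of all tested genes), and a fall of at least 8-fold in 15 (7.14%, against 2.82%). Many of the latter had a mean under 1 CPM and reached the minimum sum through their control counts. Zfp136 had 4, 0 and 0 lactate counts and Zfp605 0, 3 and 0, so their direction was set by the selection. The shares are not matched on level, which had a median of 2.58 log2 CPM over members and 3.79 over all tested genes. A rise of at least 4-fold was called in 3 members, or 1.43%, against 5.04% of all tested genes. The groups did not overlap in 153 members (72.9%), close to the 72.2% of all tested genes, 119 of them with lactate libraries below control and 34 above.

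The summed level of the members moved little. In control libraries the 114 called lower added up to 1242 ± 95.2 CPM, and under lactate to 507 ± 67.2 (SD, n = 3). The 31 called higher summed to 528 ± 19.9 and 1099 ± 45.6 CPM. The calls came from these same libraries, so the direction of the sums of these called classes was set by the calls. All tested members together summed to 2466 ± 139 and 2298 ± 210 CPM, ranges that overlapped. As a share of all counts, which uses no scaling factors, the members took 0.314, 0.340 and 0.342% of the control libraries and 0.158, 0.152 and 0.205% of the lactate libraries, and these groups did not overlap.

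The calls depended on the scaling. Leaving out the TMM factors moves all genes down together, so losing rises and keeping falls does not show that the falls are firmer. With library totals in place of TMM factors the median over all tested genes went from −0.10 to −0.96, and that over the members from −0.96 to −1.79. Then 165 members were lower, where 61.8% of all tested genes were, and 8 were higher, where 12.5% were. All 114 members called lower with TMM factors were among the 165, and the 8 were all among the 31. Those 8 were Zfp394, Zfp367, Zfp566, Zfp597, Zfp449, Zfp212, Zfp410 and Zfp800.

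Zfp672 fell from 15.2, 18.3 and 15.7 CPM in the control libraries to 2.18, 1.03 and 0.63 in the lactate libraries (log2 fold change −3.70, SE 0.38, with an edgeR adjusted p of 4.8e-05). Zfp799 was at 3.28, 3.87 and 3.35 CPM in control and at 0.14, 0.14 and 0.38 in lactate libraries (−3.91 ± 0.42, edgeR adjusted p = 5.7e-05). In both genes every lactate library was far below every control library. Zfp521, a nuclear cofactor that acts in bone and cartilage cells and antagonises Runx2, was the most abundant of the 10 largest falls, at 26.1, 36.5 and 30.1 CPM in control and 4.40, 3.10 and 4.89 in lactate libraries (−2.90 ± 0.21, edgeR adjusted p = 7.9e-06). Zfp467, which favours fat over bone cell fate in marrow progenitors, went from 3.89, 4.36 and 4.62 to 0.45, 0.61 and 0.17 CPM (−3.41 ± 0.41). The 10 largest falls and rises were picked only from members with groups apart, so the choice fixed this for these genes.

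Zfp655, which encodes a protein that binds the signalling factor Vav, showed the widest spread among the falls. Its control libraries were at 17.1, 15.8 and 14.1 CPM, and its lactate libraries at 4.81, 0.09 and 0 (−3.30 ± 1.10, edgeR adjusted p = 0.027). Lactate replicate 1 stood apart there, still below every control. Without it the fitted value was −8.48, and the call was lost without any 1 of the control libraries, without lactate replicate 2 and with DESeq2 (adjusted p = 0.145). Zfp128 had 4.64, 5.54 and 5.41 CPM in control and 0.68, 0 and 0.66 in lactate libraries (−3.49 ± 0.66). The other named falls were Zfp653 (−3.15 ± 0.51), Zfp397 (−2.97 ± 0.45), Zfp324 (−2.96 ± 0.27) and Zfp704 (−2.81 ± 0.34). Zfp704 had nearly the same level in the 3 lactate libraries, 0.50, 0.52 and 0.49 CPM, against 2.38 to 4.53 in control.

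Some members were at 0 after lactate. Of the 212, 15 (7.08%) had 0 counts in at least 1 lactate library and 2 (0.943%) in at least 1 control library, where 4.67% and 1.52% of all genes reaching the same sum did. Zfp951 had 15, 38 and 27 control counts and 0 in each lactate library, at least 13.3-fold lower against 3 counts over the lactate group. It reached the minimum sum through its control counts alone, so its direction was set by the selection. Zfp14 (41, 53 and 0 control counts) and Zfp7 (67, 0 and 83) also had 0 in all lactate libraries, but each had a control library at 0 as well. These 2 members did not pass the filter and were not tested.

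Zfp394, a factor with both a KRAB and a SCAN domain, rose most, from 4.62, 4.77 and 4.24 CPM in control to 28.5, 28.3 and 35.3 in lactate libraries (log2 fold change 2.76, SE 0.15, with an edgeR adjusted p of 2.7e-06). Zfp367 went from 34.5, 26.4 and 37.7 to 159, 155 and 139 CPM (2.20 ± 0.15, edgeR adjusted p = 5.5e-06). Zfp566 rose from 0.70, 0.93 and 0.95 to 3.99, 3.72 and 3.74 CPM (2.14 ± 0.26). In all 3 genes the lowest lactate library was well above the highest control library. Groups that did not overlap were a condition for naming them. Zfp449 (1.73 ± 0.13) rose from 9.39, 10.2 and 11.0 to 32.2, 33.1 and 36.3 CPM. Zfp410, a factor known for switching on the chromatin remodeller gene Chd4, rose from 23.6, 22.7 and 23.2 to 57.6, 58.8 and 72.1 CPM (1.44 ± 0.12, edgeR adjusted p = 1.4e-05).

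The remaining 5 of the 10 largest rises were Zfp597 (1.82 ± 0.25), Zfp212 (1.68 ± 0.18), Zfp865 (1.55 ± 0.27), Zfp956 (1.39 ± 0.39) and Zfp800 (1.31 ± 0.11). Zfp800 was even within groups, at 14.9, 14.9 and 13.6 CPM in control and 36.2, 35.7 and 35.4 in lactate libraries. Zfp956 was not, with 3.58, 2.63 and 7.58 CPM in the lactate libraries against 1.64 to 1.91 in control (edgeR adjusted p = 0.012). With library totals Zfp865 was at 0.71 and Zfp956 at 0.57, neither called. Of the 8 rises still called, Zfp394 was then at 1.91, Zfp367 at 1.34, Zfp566 at 1.28, Zfp597 at 0.97, Zfp449 at 0.88, Zfp212 at 0.84, Zfp410 at 0.59 and Zfp800 at 0.45. On log2(FPKM + 1) and log2(FPKM + 0.1) Zfp800 was at 0.31 and 0.35 and not called (limma adjusted p = 0.072 for both).

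**Figure D2:**
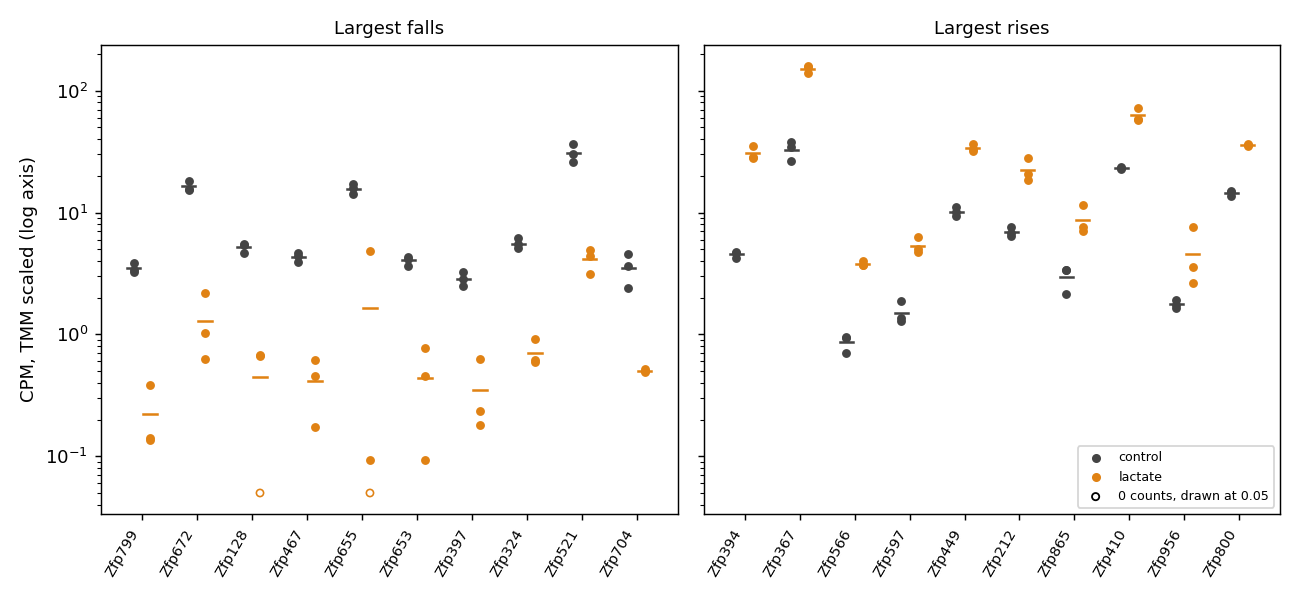
TMM-scaled CPM on a log axis for the 10 called members with the largest fall (left) and the 10 with the largest rise (right), 1 point per library, with a line at the mean of each group of 3. Open circles mark 0 counts, in 1 lactate library each of Zfp128 and Zfp655. Control and lactate points do not overlap in any of the 20 genes, as their choice required.

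The promoters of 4 of these genes are shown to set large rises beside large falls. Of the 212 members, 156 had a single entry in the RefSeq promoter table of the rat assembly GRCr8, which gives 250 bases before and 50 after each start. The windows below belong to the 2 largest rises and the 2 largest falls with a single entry, on the strand of the gene. Capitals mark CCAAT, the box bound by NFY, or its reverse complement ATTGG.
Zfp367 (GRCr8 chr17:970646-970945, plus strand): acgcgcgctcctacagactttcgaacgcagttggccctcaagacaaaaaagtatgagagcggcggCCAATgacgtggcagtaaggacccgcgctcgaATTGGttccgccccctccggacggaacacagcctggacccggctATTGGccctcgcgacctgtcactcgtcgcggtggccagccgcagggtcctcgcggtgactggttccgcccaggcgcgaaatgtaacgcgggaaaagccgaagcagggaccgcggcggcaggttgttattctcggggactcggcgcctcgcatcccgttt
Zfp566 (GRCr8 chr1:94460616-94460915, minus strand): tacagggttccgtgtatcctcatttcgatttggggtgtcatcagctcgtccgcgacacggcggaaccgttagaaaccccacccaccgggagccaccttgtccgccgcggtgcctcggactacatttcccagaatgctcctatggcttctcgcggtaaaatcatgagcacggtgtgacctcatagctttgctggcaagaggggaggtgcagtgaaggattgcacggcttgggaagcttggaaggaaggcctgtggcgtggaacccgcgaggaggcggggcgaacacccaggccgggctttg
Zfp672 (GRCr8 chr10:43005177-43005476, minus strand): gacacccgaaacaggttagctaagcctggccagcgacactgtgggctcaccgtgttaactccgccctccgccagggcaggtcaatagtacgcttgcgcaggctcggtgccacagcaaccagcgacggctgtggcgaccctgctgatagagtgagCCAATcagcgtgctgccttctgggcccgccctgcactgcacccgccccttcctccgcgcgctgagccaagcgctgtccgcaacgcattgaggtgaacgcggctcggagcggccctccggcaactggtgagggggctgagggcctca
Zfp467 (GRCr8 chr4:78723086-78723385, minus strand): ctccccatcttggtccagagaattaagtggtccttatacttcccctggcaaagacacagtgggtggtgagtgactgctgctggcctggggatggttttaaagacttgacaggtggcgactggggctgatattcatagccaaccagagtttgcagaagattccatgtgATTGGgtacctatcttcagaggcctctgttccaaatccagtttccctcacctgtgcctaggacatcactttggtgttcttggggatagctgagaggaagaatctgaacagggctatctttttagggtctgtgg

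Zfp367, whose window holds 37 CpG dinucleotides, and Zfp467, whose window holds 1, lie at opposite ends of these 4. The windows of Zfp566 and Zfp672 hold 23 and 25. Over members with an entry, the CpG ratio, the observed count of CG over that expected from the window's C and G, had a median of 0.860 in the 24 called higher, 0.725 in the 82 called lower and 0.713 in the 49 not called. For the 8666 tested genes that are not members it was 0.786, and the quartiles of the called classes overlapped (0.648 to 0.938 for higher, 0.593 to 0.867 for lower). CCAAT stood in 54.2% of the windows of members called higher, 41.5% of those called lower, 38.1% of those of tested non-members and 37.8% of all 24206 windows. The ETS motif CCGGAAG stood in 12.5%, 26.8%, 18.6% and 9.49% of the same windows.

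The other motifs were read on both strands in the same way, and none of the 7 contains another. TGACGTCA, the element bound by CREB and ATF factors, stood in 3 of 156 member windows (1.92%, against 3.20% of those of tested non-members and 1.91% of all windows). TGATGCAA, the composite element of ATF4, stood in 1 (0.641%, against 0.739%). The NRF1 motif GCATGCGC stood in 9 (5.77%, against 2.76%), the YY1 motif AAGATGGCG in 10 (6.41%, against 2.03%) and the ZNF143 motif CTACAATTC in 3 (1.92%, against 0.392%). In the tested non-members, which like the members are expressed genes, these 3 stood in 5.35%, 4.05% and 0.773%. A match is a description of letters in the window, and binding was not measured.

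Per transcript length, the most abundant members were Zfp207, Zfp326, Zfp706, Zfp598 and Zfp367. Zfp207 (BuGZ), which loads the checkpoint protein Bub3 onto kinetochores, led with 61.5 FPKM over the 6 libraries. It was at 77.6, 86.1 and 92.6 CPM in control and 142, 139.8 and 148.1 in lactate libraries, a rise of 0.75 ± 0.10 (edgeR adjusted p = 0.00021) that was −0.11 and not called with library totals. Zfp326, a subunit of the DBIRD complex that links RNA polymerase II to mRNA particles, rose by 0.91 ± 0.15, but library totals gave 0.04, which was not called. Zfp706, a small protein, was at 60.4, 53.6 and 55.8 CPM in control and 58.0, 55.4 and 56.1 in lactate libraries (−0.00 ± 0.10, edgeR adjusted p = 0.98), groups that overlapped. It was called lower with library totals (−0.86).

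A list of 27 numbers with known roles held 24 tested members, of which 7 were higher, 9 lower and 8 not called, with a median of −0.12, beside 31.4% higher and 34.6% lower among all tested genes. Zfp598, the ubiquitin ligase that marks collided ribosomes, rose from 56.5, 57.6 and 57.2 to 96.2, 102 and 92.1 CPM (0.76 ± 0.09), but was at −0.10 with library totals. Zfp91, another ubiquitin ligase, rose from 78.0, 75.3 and 76.1 to 113, 116 and 119 CPM (0.60 ± 0.09), but was at −0.25 with library totals. Zfp622, which acts in the maturation of the large ribosomal subunit, rose from 9.19, 13.3 and 15.5 to 29.1, 25.2 and 24.0 CPM (1.04 ± 0.20; 0.18, not called, with library totals). In these 3 genes every lactate library was above every control library.

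Zfp516, an activator of the brown fat programme, was called higher too (0.61 ± 0.12, and −0.25 with library totals). Zfp57, the KRAB zinc finger protein that keeps methylation at imprinted genes, went from 9.76, 11.6 and 11.2 to 1.72, 2.59 and 3.29 CPM (−2.09 ± 0.25, edgeR adjusted p = 0.00010). Zfp462, a partner of heterochromatin proteins, went from 18.4, 24.0 and 27.5 to 8.30, 6.91 and 7.17 CPM (−1.65 ± 0.18; −0.60 with the trend on level and length removed, as described further on). Both genes had all lactate libraries below all controls. Zfp292 (−1.33 ± 0.21; −0.17, not called, with that trend removed) and the RNA-binding protein gene Zfp106 (−1.01 ± 0.19) were also lower.

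Smaller falls were called for Zfp703 (−0.58 ± 0.14), a repressor, for Zfp148 (−0.56 ± 0.20), which binds GC-rich promoters, for Zfp281 (−0.47 ± 0.16), a repressor of pluripotency genes, and for Zfp638 (−0.45 ± 0.10), known for silencing retroviral DNA with the HUSH complex. With the trend on level and length removed, Zfp703 was at −0.43 and still called. Zfp148 (−0.47), Zfp281 (−0.23) and Zfp638 (0.04) were not. The call of Zfp281 was also lost without control replicate 2 or 3 or lactate replicate 1 or 3. The call of Zfp148 came with groups that overlapped, at 30.3, 38.6 and 38.0 CPM in control and 20.9, 19.3 and 32.2 in lactate libraries (edgeR adjusted p = 0.037), and was lost without control replicate 2 or 3 or lactate replicate 1 or 2. Zfp219, a partner of Sox9 in cartilage cells, was at 16.1, 17.3 and 17.9 CPM in control and 17.1, 19.99 and 18.8 in lactate libraries (0.12 ± 0.13, edgeR adjusted p = 0.41). Its groups overlapped, and with library totals it was called lower (−0.73).

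Zfp143, an activator of small nuclear RNA promoters, was not called (0.44 ± 0.33, edgeR adjusted p = 0.27). Its lactate libraries were at 12.9, 10.4 and 27.4 CPM, against 10.7, 14.6 and 12.2 in control, and without lactate replicate 3 it was at −0.07. Also not called were Zfp217 (−0.39), Zfp503 (−0.24), the Parkin substrate Zfp746 (−0.23), the SUMO ligase Zfp451 (−0.02), Zfp644 (0.13), a partner of the histone methyltransferase G9a, and Zfp335 (0.28). With library totals Zfp644 and Zfp335 were at −0.72 and −0.57, and Zfp143 at −0.38. With the trend on level and length removed, Zfp644 (0.77), Zfp335 (0.57) and Zfp143 (0.87) were called higher. Zfp335 was also called higher with RLE factors in place of TMM factors (0.32) and with DESeq2 (0.32). Without lactate replicate 3 Zfp746 was called lower (−0.42, edgeR adjusted p = 0.023). Of these genes, Zfp335 and Zfp503 had groups that did not overlap. Zfp423 of this list had 21 counts in all and was under the minimum sum.

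Lactate replicate 3 held more member counts than the other lactate libraries. It was the highest of the 3 in 131 of 210 members (62.4%), against 39.9% of all tested genes, and replicates 1 and 2 were highest in 40 and 38. The members' median log2 difference from the control mean was −1.03, −0.90 and −0.65 in lactate replicates 1, 2 and 3, with −0.10, −0.11 and −0.07 over all tested genes. Without lactate replicate 3, 119 members were lower and 30 higher, with a median of −1.02. The spread between lactate libraries, as a median coefficient of variation over members with at least 1 CPM, was 24.2%, against 11.7% between control libraries. For other genes it was 14.7% between lactate and 9.99% between control libraries. The members were lower in level than other genes, and the part of low counts in this spread was not tested.

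Fold changes in these data followed level and transcript length, and the members were below the middle in level. Of the 210, 126 lay in the lowest 2 quintiles of all tested genes by mean log2 CPM, and 104 (49.5%) in the highest 2 quintiles by relative length, the ratio of counts to FPKM. Members in the lowest quintile by level had a median of −1.73 (51 members), where other genes of that quintile had −0.53. In the second quintile it was −1.05 against −0.52, in the third −0.57 against −0.24, in the fourth 0.07 against 0.05 and in the highest, with 7 members, 0.68 against 0.62. A mean over all libraries is lower for a gene that fell. By the control level alone the medians from the lowest to the highest quintile were −1.49, −1.06, −0.84, −0.47 and 0.30, the last from 6 members, against −0.13, −0.36, −0.19, −0.04 and 0.17 for other genes.

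**Figure D3:**
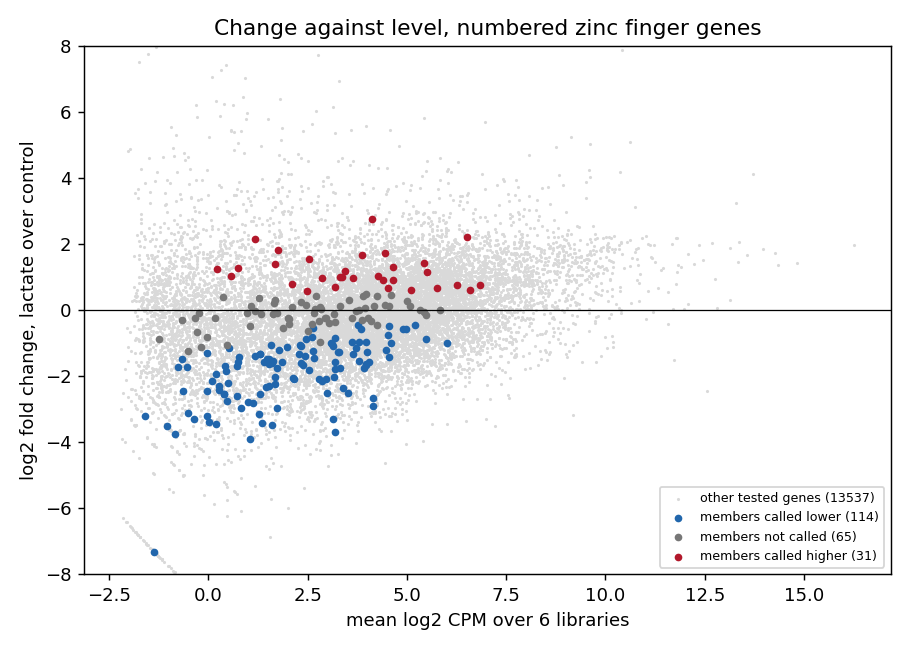
Log2 fold change of lactate over control (vertical axis) against mean log2 CPM over the 6 libraries (horizontal axis) for the members, coloured by call, and for other tested genes in light grey. The members called lower lie mostly at the left, at low level; 17 other genes beyond a log2 change of 8 in either direction are not drawn.

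Set beside other genes of like level and length, the members were still lower. All tested genes were placed in 5 by 5 classes of mean level and relative length, and the 12212 non-members that shared a class with a member were weighted to the members' numbers. Those genes had a median log2 fold change of −0.49, with 18.7% called higher and 43.3% lower, where the members had −0.96, with 14.8% and 54.3%. The difference of the medians was −0.47, and it was −0.43 with 10 by 10 classes and −0.59 with the level taken from control libraries. With a smooth trend on level and length removed in the edgeR fit, the members' median was −0.36, against −0.005 over all tested genes. Then 74 of 210 members were lower, where 30.3% of all tested genes were, and 43 were higher, where 29.3% were. The share of falls was then closer to that of all tested genes than without the trend removed (54.3% against 34.6%). These are descriptions without a test.

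**Figure D4:**
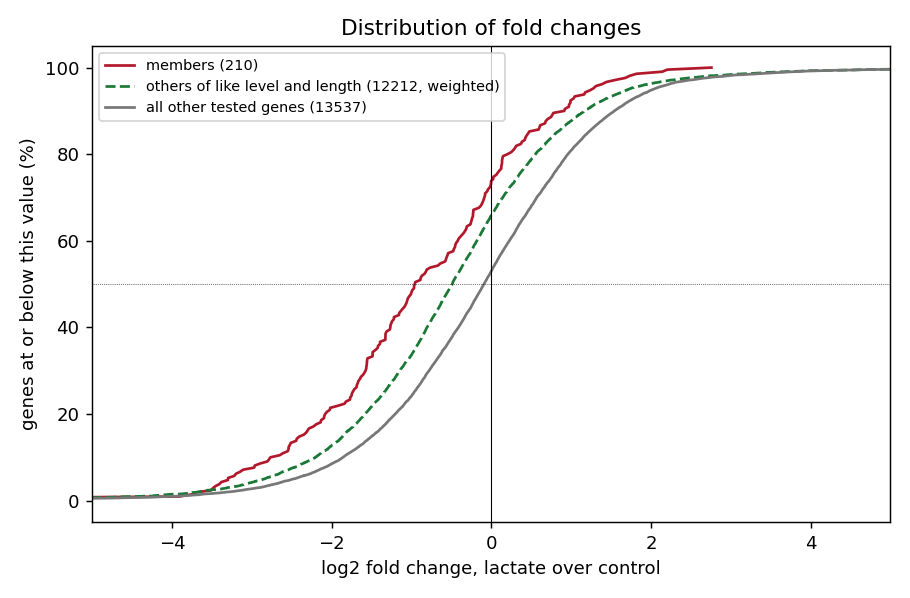
The share of genes (vertical axis, %) at or below each log2 fold change (horizontal axis) for the 210 members, for 12212 non-members of like level and length weighted to the members' numbers, and for all other tested genes. The curves cross the dotted line at 50% at −0.96, −0.49 and −0.09, and 73.8% of members lie below 0.

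With the trend removed the largest changes were mostly still called. Of the 10 largest falls, Zfp655 (−2.52, edgeR adjusted p = 0.073) lost its call and the other 9 kept theirs, from −2.27 for Zfp521 to −3.30 for Zfp799. The 10 largest rises all kept theirs, from 1.45 for Zfp410 to 2.98 for Zfp394. Zfp207 and Zfp326 were at 0.03 and 0.13 and no longer called. Zfp292, among the longest members with 4.66 times the median relative length, went from −1.33 to −0.17 and was no longer called.

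Other zinc finger families were read in the same fit with the same minimum sum, without a test between families. Of 14 Zkscan and Zscan genes, whose proteins carry a SCAN domain and C2H2 fingers, 8 were lower and 1 higher, with a median of −0.63. Of 39 Zbtb genes, whose proteins join a BTB domain to fingers, 17 were lower and 10 higher (median −0.08). The Zc3h genes, of CCCH fingers that bind RNA, had 5 lower and 4 higher of 14 (−0.42), and the Klf genes, of Krüppel-like activators and repressors, had 4 lower and 5 higher of 14 (0.11). The Zdhhc genes, acyltransferases named for another zinc-binding motif, had 7 lower and 4 higher of 19 (−0.04). Over all tested genes 34.6% were lower and 31.4% higher. With library totals, where these shares are 61.8% and 12.5%, the families had lower and higher counts of 12 and 0 for Zkscan and Zscan, 22 and 5 for Zbtb, 10 and 2 for Zc3h, 8 and 3 for Klf and 15 and 1 for Zdhhc. With the trend removed the Zbtb genes turned to 12 lower and 19 higher (median 0.43), and Zkscan and Zscan had 4 and 4, Zc3h 6 and 4, Klf 2 and 6 and Zdhhc 7 and 4.

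The partners through which KRAB zinc finger proteins silence chromatin were read in the same fit. With TMM factors alone they were called in shares close to those of all tested genes. Of 30 tested genes of a list of 32 symbols, which holds Zfp57, 11 were higher, 10 lower and 9 not called, with a median of 0.02 (36.7% higher and 33.3% lower, against 31.4% and 34.6%). With library totals 2 were higher and 21 lower, where 12.5% and 61.8% of all tested genes were. With the trend removed 7 of the 30 were higher and 15 lower (median −0.41), where 29.3% and 30.3% of all tested genes were. There falls were more frequent among the partners than over all tested genes. In that last fit Trim28 (0.03), Setdb1 (−0.12) and Cbx1 (−0.03) were not called. Trim28, the shared co-repressor, rose from 177, 150 and 158 to 249, 265 and 260 CPM (0.67 ± 0.10), but was at −0.19 with library totals. Setdb1, the methyltransferase it recruits, was called lower (−0.48 ± 0.15, edgeR adjusted p = 0.019). Of the HUSH complex and its partner, Tasor fell from 16.8, 21.7 and 19.3 to 1.90, 0.89 and 1.78 CPM (−3.64 ± 0.27) and Morc2 from 39.7, 46.0 and 45.1 to 11.6, 10.2 and 9.96 CPM (−2.05 ± 0.13), while Mphosph8 was lower (−0.82) and Pphln1 higher (0.42, and −0.43 with library totals). The heterochromatin protein genes Cbx3 (−1.42 ± 0.15) and Cbx5 (−1.28 ± 0.20) fell and Cbx1 rose (1.00 ± 0.16; 0.15, not called, with library totals). The DNA methyltransferase gene Dnmt3a rose (1.65 ± 0.13), while Dnmt3b fell (−3.57 ± 0.90) from under 1 CPM. Chd4, the gene that Zfp410 switches on, was at 0.21 ± 0.08 (edgeR adjusted p = 0.049; −0.64 with library totals).

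Zinc finger genes often lie in clusters, and 206 members matched a gene of GRCr8 by symbol or by a single synonym, which was used only to find neighbours. With no other protein-coding gene between them, 51 tested members lay in 20 runs of 2 to 5 members. Of the 31 neighbouring pairs, 6 had both genes lower, 1 both higher, 4 in opposite directions and 20 at least 1 gene not called. Members in runs had a median of −0.84 (26 lower, 8 higher of 51) and the other matched members −0.95 (85 lower, 23 higher of 153). The runs were mixed. In the run of Zfp786, Zfp398, Zfp282, Zfp212 and Zfp956, 2 were higher and 2 lower, while in that of Zfp560, Zfp26, Zfp426, Zfp266 and Zfp846, 3 were lower and 0 higher. Zfp672, the second largest of the named falls, lies next to Zfp692, which was at −0.25. Paralogs in such clusters can share near-identical stretches, and the deposited counts could split or merge their reads.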

How the data were processed

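RNA sequencing libraries, 3 control and 3 lactate, were analysed. The authors deposited raw read counts per gene and FPKM (counts scaled by length and library total), with their own p-value and log2 fold change columns, per the file headers. GRCm38 and mm10, mouse builds, stand in the submitters' processing notes, although the samples are from rat. Which aligner, counter and annotation were used, and whether strand was, is not given in the sources used here, so overlapping and near-identical genes are uncertain. The authors' deposited table has 114 members lower and 28 higher at an adjusted p-value under 0.05, with a median log2 fold change of −1.00, where 28.0% and 23.6% of its 17273 genes are, with a median of −0.16.

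Counts were tested as deposited with edgeR 4.0.16 in R 4.3.3 (quasi-likelihood test, TMM factors, filterByExpr, group as the only term, Benjamini-Hochberg adjustment over 13747 genes), and checked on simulated data. SD is over 3 libraries. SE was derived from the test, as the size of the log2 fold change before edgeR's shrinkage over the square root of the F statistic. The trend on level and relative length was fitted with mgcv 1.9.3 on non-members. Members and lists were chosen with earlier results of these data known. Named members are the 10 largest rises and falls among those called, with a mean CPM of at least 1 and groups apart, the 5 highest by mean FPKM, a list of 27 numbers, and the 2 nearest the minimum sum on each side. Alternatives for the partner genes were added after seeing the data. Protein features listed in the plan were not analysed here.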

Additional observations from a re-analysis of the deposited data

How the results depend on the processing

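The count of members called lower, called higher and their median (114, 31 and −0.96) kept direction under all settings tried. With library totals 8 members were higher and the median was −1.79. Limma-trend gave 7 higher and 168 lower on log2(FPKM + 1) and on log2(FPKM + 0.1). The median was −0.84 on the former, which understates changes of low genes, and −1.67 on the latter. FPKM is scaled by library totals, so these fits move all genes down together, as leaving out the TMM factors does. The median FPKM over all tested genes averaged 7.80 in control and 3.71 in lactate libraries. Shares called over all tested genes were not counted for these fits. With the level and length trend removed 74 were lower and the median was −0.36. With a minimum sum of 600 the median was −0.55. RLE and upper-quartile factors, no filter, a mean CPM of at least 1, DESeq2 1.42.0, limma-voom 3.58.1 and a minimum sum of 120 stayed within 1.5 times for the counts. Leaving out each library gave 98 to 119 lower, 25 to 30 higher and medians of −1.02 to −0.83. With the replicate block 111 were lower and 29 higher, with a median of −0.96. The labels name no pairs, and the deviations of same-numbered libraries from their group means correlated at 0.01, 0.04 and 0.08. Control replicates 2 and 3 correlated best with the lactate library of the same number, and control replicate 1 with lactate replicate 2 (0.07). Correlations this weak do not settle whether the libraries were paired.

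Some named members changed sign. With library totals these were Zfp207 (−0.11), Zfp598 (−0.10), Zfp91 (−0.25), Zfp143 (−0.38), Zfp219 (−0.73), Zfp335 (−0.57), Zfp516 (−0.25) and Zfp644 (−0.72). On log2(FPKM + 1) they were at −0.12, −0.10, −0.25, −0.43, −0.64, −0.53, −0.26 and −0.58 in the same order, and on log2(FPKM + 0.1) at −0.12, −0.11, −0.27, −0.54, −0.74, −0.60, −0.29 and −0.72. Upper-quartile factors put Zfp219 at −0.032 and Zfp644 at −0.024. RLE factors and DESeq2 gave 0.0417 and 0.0416 for Zfp706, and 0.0233 and 0.0235 for Zfp451. With the trend removed Zfp217 was at 0.32, Zfp451 at 0.61, Zfp503 at 0.28, Zfp638 at 0.038 and Zfp746 at 0.27. Leaving out each library in turn put Zfp706 at −0.042 to 0.044, Zfp451 at −0.29 to 0.19 and Zfp143 at −0.068 (without lactate replicate 3) to 0.694. Of the members with a changed sign, Zfp207, Zfp598, Zfp91, Zfp516 and Zfp638 were called. The cause was not tested. At low counts depth limits the fold change, as 24 members were under 1 CPM.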

Other observations

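Symbols that begin with Zfp or Znf but carry more than a number, which the rule did not take, were read in the same fit. Of 23 tested, 12 were lower, 3 higher and 8 not called (34.6% and 31.4% of all tested genes were lower and higher), and their median was −0.96 on the log2 scale (−0.39 with the level and length trend removed, with 8 lower and 3 higher). Zfp764l1 (−4.20 ± 0.61) and Zfp518b (−3.31 ± 0.36) were lowest. Zfp36l1 rose by 1.14 ± 0.20, a gene whose CCCH protein binds AU-rich elements and promotes mRNA decay, while its relative Zfp36l2 was at 0.20 ± 0.19 (edgeR adjusted p = 0.38; −0.68 with library totals). The helicase-like gene Znfx1 was lower (−1.85 ± 0.24). With library totals 20 of the 23 were lower and 0 higher, where 61.8% and 12.5% of all tested genes were.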
